A study of Mus musculus with 203 samples.

Results

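The genes described here are the 8 that build and regulate the MHC class II presentation pathway in the mouse: Ciita, Cd74, H2-Aa, H2-Ab1, H2-Eb1, H2-DMa, H2-DMb1 and H2-DMb2. They were taken by gene symbol from the expression tables of both RNA-seq experiments in the series, and all 8 were found among the 25094 genes listed for RAW264.7 cells and among the 16478 listed for bone marrow-derived macrophages (BMDMs). Values per library exist only for the RAW264.7 cells, so every result below comes from that line. RAW264.7 is a macrophage-like line of BALB/c origin, used here as lentiviral pools selected with puromycin. One pool carried a control shRNA against GFP (shGFP) and the other a single shRNA against Kdm1a (shKDM1A), a histone demethylase, so that a property of the pool cannot be told apart from the effect of Kdm1a. Each pool was sequenced without IL4 and after 20 ng/ml of IL4 for 6 h. This gave 4 groups, and each held 4 libraries. The study describes its replicates as biological in general, but neither it nor the labels say whether these libraries came from separate cultures, so p-values measure the spread between these libraries.

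MHC class II molecules are pairs of an alpha and a beta chain that carry peptides from the endosome to the cell surface, where CD4+ T cells read them. Cd74, the invariant chain, fills the groove of new pairs and guides them to the endosome, where proteases cut it down to a short remnant. H2-DM, a heterodimer of H2-DMa with a product of H2-DMb1 or H2-DMb2, then exchanges that remnant for peptide. CIITA, the product of Ciita, switches on the whole set by docking on factors that bind paired X and Y boxes upstream of each gene, and macrophages raise it mainly in response to interferon gamma. In macrophages and B cells IL4 is a classical inducer of class II, through STAT6.

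The H2 genes lie together on chromosome 17 of mm9. H2-DMa spans chr17:34259777-34276046, followed by H2-DMb2 at chr17:34280174-34288498 and H2-DMb1 at chr17:34290136-34297174. Further along are H2-Ab1 at chr17:34400172-34406363, H2-Aa on the minus strand at chr17:34419689-34424768 and H2-Eb1 at chr17:34442812-34453619. Ciita lies elsewhere, at chr16:10488271-10527733, and Cd74 lies outside both regions, with 1 other row of the table, the microRNA gene Mir5107, inside its span. Each value is a sum over the exons of 1 RefSeq transcript model per gene, so it does not separate coding from untranslated exons.

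The class II control sequences are shown first because the members differed most in level and are known to share this X and Y arrangement. RefSeq promoter sequences (build GRCm38.p6) matched 5 of the 8 genes, namely H2-Aa, H2-Eb1, H2-DMa, H2-DMb1 and H2-DMb2. The 140 bases just before the annotated start are printed 5′ to 3′ on the strand of the gene, with capitals for ATTGG, the core of the Y box (CCAAT where it lies on the other strand), and for AACTGATGATGCT, the longest run of bases that H2-Eb1 and H2-DMb1 share, which covers part of the X box. H2-DMa has a pair of annotated starts, and the upstream one is printed.
H2-Eb1, chr17:34305727-34305866, plus strand: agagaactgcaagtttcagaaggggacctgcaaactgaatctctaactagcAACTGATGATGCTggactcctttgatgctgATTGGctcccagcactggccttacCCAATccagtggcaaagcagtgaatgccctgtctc
H2-DMb1, chr17:34153051-34153190, plus strand: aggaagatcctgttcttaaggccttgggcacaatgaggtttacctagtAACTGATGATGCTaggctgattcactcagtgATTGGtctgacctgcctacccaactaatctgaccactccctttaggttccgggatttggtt
H2-DMb2, chr17:34145109-34145248, plus strand: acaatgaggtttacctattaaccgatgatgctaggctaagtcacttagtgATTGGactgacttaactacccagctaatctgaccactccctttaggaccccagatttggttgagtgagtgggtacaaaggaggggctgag
H2-Aa, chr17:34287824-34287963, minus strand: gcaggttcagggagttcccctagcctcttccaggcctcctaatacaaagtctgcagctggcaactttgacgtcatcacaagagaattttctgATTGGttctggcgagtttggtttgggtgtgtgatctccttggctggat
H2-DMa, chr17:34122692-34122831, plus strand: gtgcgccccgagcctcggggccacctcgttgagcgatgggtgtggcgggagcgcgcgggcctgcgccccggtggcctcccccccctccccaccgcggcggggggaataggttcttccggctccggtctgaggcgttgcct

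Both patterns were searched on both strands in the 250 bases before each start, and they do not overlap each other. ATTGG was found in 33.8% of the 32851 RefSeq promoters. The shared run was chosen from H2-Eb1 and H2-DMb1, so its presence there is no finding, and it occurred in no other promoter of the table (0.00609% in all). It began 89 bases before the start in H2-Eb1 and 92 bases in H2-DMb1, with ATTGG beginning at 59 and 61 bases. H2-Eb1 held a further match on the other strand, printed as CCAAT, 35 bases before the start. H2-DMb2 held a stretch that differs from the run at 1 base, and 21 of all promoters (0.0639%) came as near as this or nearer. It also held ATTGG 90 bases before the start. H2-Aa held ATTGG 48 bases before the start, and its nearest stretch differed from the run at 5 bases. The upstream start of H2-DMa held no ATTGG, and its other start held 1 at 198 bases. A match describes these letters only, and the factors were not measured on them here.

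These genes differed widely in level in RAW264.7 cells. The deposited values are on a log2 scale and are moderated, which means that values of weakly counted genes are drawn together. Genes with a mean under 2 had a median range over the 16 libraries of only 0.0145, against 0.294 for genes between 6 and 10. Cd74 had a mean value of 12.07, above 94.4% of the 16606 genes not listed at 0 throughout. H2-DMa stood at 7.12, above 43.7% of them, H2-DMb2 at 3.71 and H2-Ab1 at 1.81. Ciita at 0.92, H2-DMb1 at 0.64, H2-Eb1 at 0.05 and H2-Aa at -0.34 lay below the level of at least 1 in at least 4 libraries that was required for testing. Thus 4 of the 8 members were tested among 12905 genes, and the chains that form the class II molecule itself were weakly expressed. H2-Ab1, H2-Eb1 and H2-Aa lay above 25.2%, 18.8% and 17.2% of the genes not listed at 0 throughout.

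Per kilobase of exon, on the log2 scale, the order of mean levels was Cd74 at 11.58, H2-DMa at 6.39, H2-DMb2 at 3.14, H2-Ab1 at 1.56, H2-DMb1 at 0.29, H2-Aa at -0.51, H2-Eb1 at -0.69 and Ciita at -1.49. The ranges of neighbouring genes over the 16 libraries did not overlap, although at these low values that spread is narrowed by the moderation. The beta chains H2-DMb1 and H2-DMb2 are near copies, and 26.8% of the 50-base windows of the longest H2-DMb1 transcript also occur in H2-DMb2, so reads could be exchanged between them. The row of H2-DMb2 is moreover built on a RefSeq model of a non-coding transcript, so its value need not stand for the coding message. H2-Aa, H2-Ab1 and H2-Eb1 are polymorphic between strains, and reads of these BALB/c cells were aligned to the mm9 reference. What this did to their levels was not tested.

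**Figure D1:**
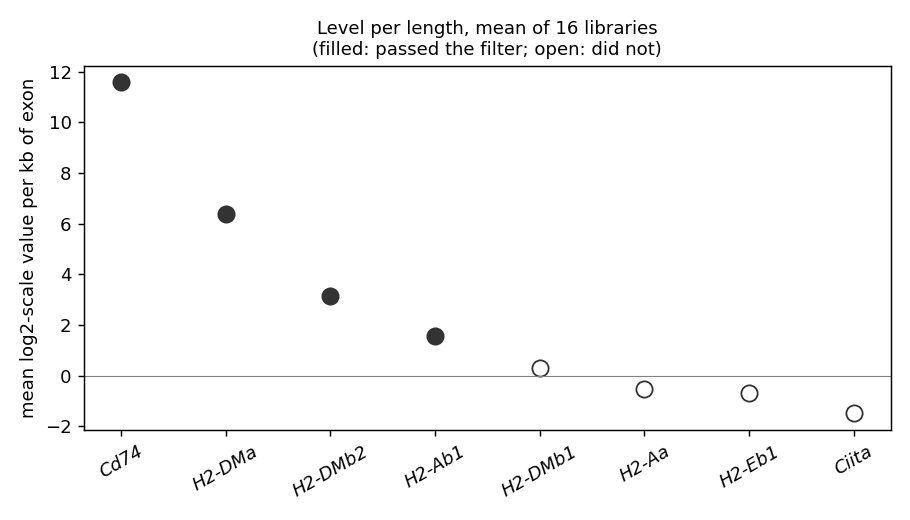
Mean level of each class II gene over 16 RAW264.7 libraries, as the deposited log2-scale value per kilobase of exon, in falling order. Filled points are the 4 genes that passed the filter and open points the 4 that did not; Cd74 stands at 11.58 and Ciita at -1.49.

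The identity of the cells was checked on markers. Of 8 macrophage markers, 7 passed the filter, and Mertk did not. Of 8 dendritic cell markers 4 passed, led by Itgax, which macrophages also express, and by Zbtb46. The B cell and T cell lists had 1 marker each above the filter, Blnk and Lck. Library totals ran from 17554721 to 27782568 tags. Kdm1a itself was lower in every shKDM1A library, at 10.23 to 10.36 against 11.07 to 11.23 in shGFP libraries. The fold change was -0.88 without IL4 (SE 0.03, adjusted p = 5.6e-13) and -0.79 with IL4 (SE 0.03, adjusted p = 2.2e-12), or 0.54 and 0.58 of the control level.

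The first question was what IL4 did to the pathway in control cells. Cd74 was the 1 member called higher, of 4 tested. Its values without IL4 were 11.67, 11.70, 11.70 and 11.73 in the 4 shGFP libraries, and with IL4 they were 12.52, 12.49, 12.55 and 12.50. All libraries with IL4 lay far above all without. The log2 fold change was 0.82 (SE 0.03, adjusted p = 1e-11), or 1.76-fold, and only 0.263% of the genes tested had a larger rise. Across all genes tested in this comparison, 13.1% were called higher and 13.7% lower.

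H2-DMa, the alpha chain of the peptide exchanger, read 6.92, 6.81, 6.92 and 6.96 without IL4 and 7.03, 7.05, 6.92 and 6.98 with IL4 in shGFP cells. The ranges overlapped, and the log2 fold change of 0.09 (SE 0.04) had an adjusted p of 0.09. This call depended on 1 library, since without the shGFP IL4 replicate 3 the fold change was 0.12 with an adjusted p of 0.04. H2-DMb2, whose coding message makes a beta chain of the exchanger, had a fold change of 0.07 (SE 0.03, adjusted p = 0.069). It was not called, although its IL4-treated libraries, from 3.70 to 3.76, lay above its untreated ones, from 3.61 to 3.68. H2-Ab1, the beta chain of the I-A molecule, stayed between 1.80 and 1.84 in all 8 shGFP libraries, with a fold change of -0.0035 (95% interval -0.04 to 0.03).

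The same treatment in shKDM1A cells raised Cd74 and H2-DMa, 2 of the 4 members tested, beside 13.6% of all genes tested called higher and 13.5% lower. Cd74 read 11.67, 11.56, 11.63 and 11.60 without IL4 and 12.48, 12.37, 12.53 and 12.39 with it, again with no overlap. The log2 fold change was 0.83 (SE 0.03, adjusted p = 1e-11), or 1.77-fold. H2-DMa read 7.21, 7.21, 7.10 and 7.12 without IL4 and 7.46, 7.35, 7.43 and 7.39 with it. Its fold change was 0.25 (SE 0.04, adjusted p = 0.00013), or 1.19-fold, with every IL4 library above every library without. H2-DMb2 had a fold change of 0.07 (adjusted p = 0.058), and H2-Ab1 one of 0.01 (adjusted p = 0.71).

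**Figure D2:**
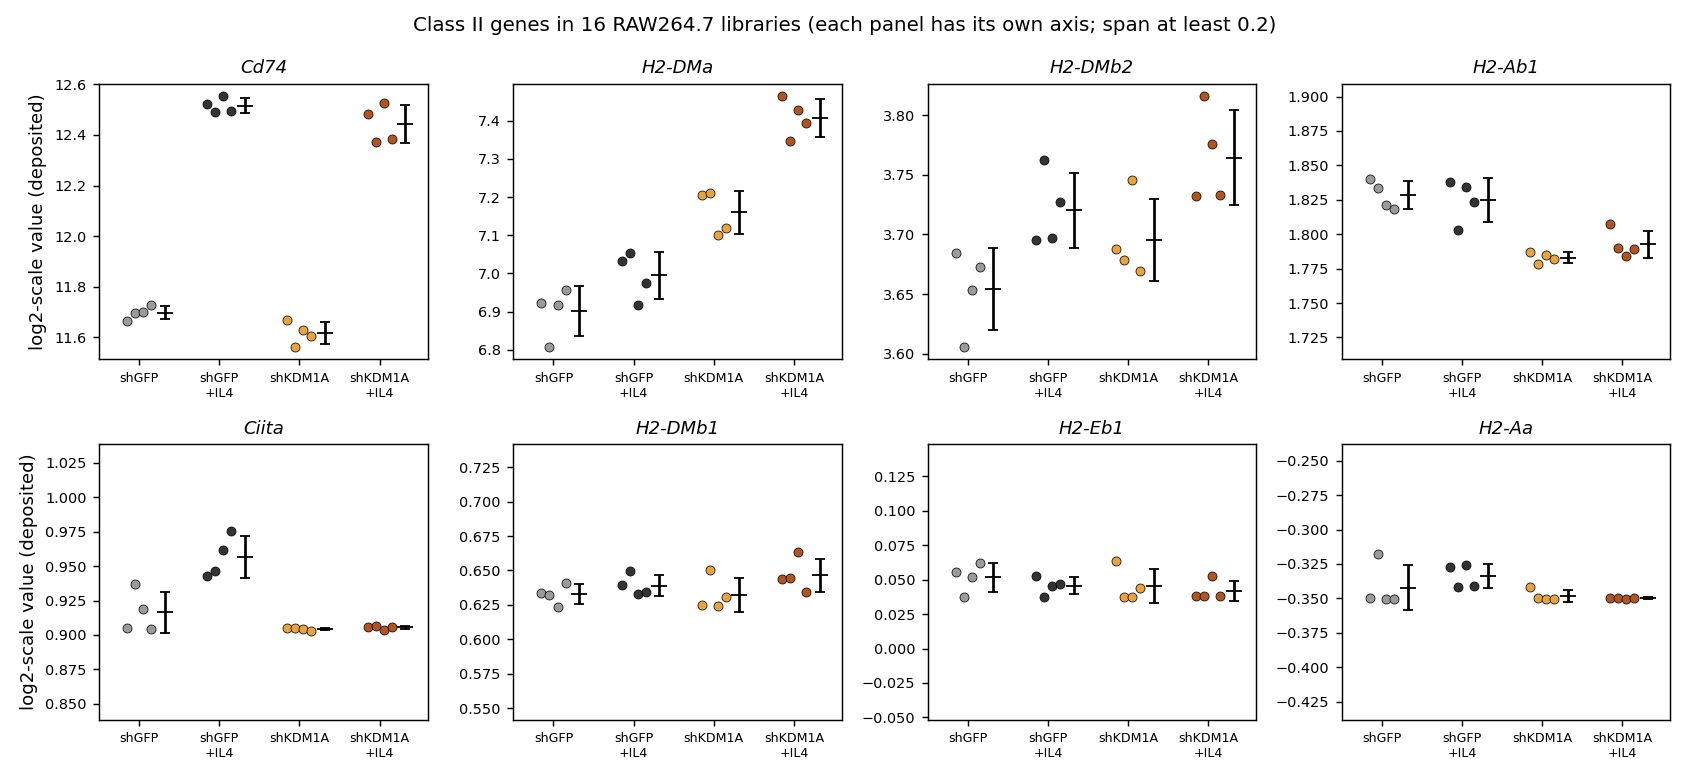
Deposited log2-scale values of the 8 class II genes in each RAW264.7 library, by pool and IL4 treatment; points are libraries, and the bar beside each group is its mean ± SD (n = 4). Each panel has its own axis. Cd74 rises with IL4 in both pools. The mean of H2-DMa is 6.90 in shGFP cells without IL4 and 7.41 in shKDM1A cells with it, and its change with IL4 in shGFP cells was not called. The widest range of the lower row, that of Ciita, is 0.07.

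Whether the IL4 response itself differed between the pools was tested as an interaction. None of the 4 members passed, beside 6.13% of all genes tested. At an unadjusted p under 0.05 there was 1, H2-DMa. For Cd74 the difference of the responses was 0.01 (95% interval -0.09 to 0.10, adjusted p = 0.94). The interval excludes a change in the response larger than about 0.10 on the log2 scale, set against a response of 0.82. For H2-DMa the difference was 0.16 (95% interval 0.04 to 0.27, adjusted p = 0.10). Without the shGFP control replicate 2, whose value of 6.81 was the lowest of the 16, it was 0.19 with an adjusted p of 0.046. The differences for H2-DMb2, 0.0028 (95% interval -0.07 to 0.08), and H2-Ab1, 0.01 (95% interval -0.03 to 0.06), included 0.

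The second question was what Kdm1a depletion did at a fixed state of IL4 treatment. Without IL4, H2-DMa was higher and H2-Ab1 lower in shKDM1A cells, beside 19.7% of all genes tested called higher and 18.4% lower. The difference for H2-DMa was 0.26 (SE 0.04, adjusted p = 5.3e-05), or 1.20-fold, with all 4 shKDM1A libraries above all 4 shGFP libraries. That for H2-Ab1 was -0.05 (SE 0.01, adjusted p = 0.025), from 1.82 to 1.84 in shGFP libraries down to 1.78 to 1.79 in shKDM1A libraries. These ranges did not overlap, but the shift was small and lay in the range where values are drawn together. Its adjusted p rose above 0.05 when the shGFP control replicate 1 (0.067) or 2 (0.056), or the shKDM1A control replicate 2 (0.056) or 4 (0.052), was left out, and in a fit of these 2 groups alone (0.059). Cd74 was not called, at -0.08 (95% interval -0.15 to -0.01, adjusted p = 0.055), nor was H2-DMb2, at 0.04 (adjusted p = 0.23). The result for Cd74 lay near the threshold. It was called in limma fits of these 2 groups alone (adjusted p = 0.029), with a replicate block (0.036), after quantile normalization (0.0087) and with a trended prior variance (0.032). It was also called in 4 of the 16 fits that left out 1 library.

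With IL4 present, H2-DMa was the 1 member called, beside 20.9% of all genes tested called higher and 19.8% lower. It was higher in shKDM1A cells by 0.41 on the log2 scale (SE 0.04, adjusted p = 2.7e-07), or 1.33-fold. Its values of 7.35 to 7.46 lay above the 6.92 to 7.05 of IL4-treated shGFP cells, and 2.65% of the genes tested were higher by more than this. Cd74 differed by -0.07 (95% interval -0.14 to -0.01, adjusted p = 0.079). It was called at -0.14 after quantile normalization (adjusted p = 0.0018) and at -0.10 without the shKDM1A IL4 replicate 3 (adjusted p = 0.015). H2-Ab1 differed by -0.03 (adjusted p = 0.10), and H2-DMb2 by 0.04 (adjusted p = 0.19). The comparisons of IL4 and of the pools share libraries, so their values stand side by side and are not independent of each other.

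Ciita, the master regulator, was close to its lowest value in most libraries. In shGFP cells without IL4 it read 0.905, 0.937, 0.919 and 0.904, and with IL4 0.943, 0.946, 0.962 and 0.9755. In shKDM1A cells it read 0.903 to 0.905 without IL4 and 0.904 to 0.906 with it. All 8 shKDM1A libraries were thus within 0.005 of the lowest value, against 2 of the shGFP libraries without IL4 and 0 with it. The differences of means were 0.04 for IL4 in shGFP cells, 0.0012 for IL4 in shKDM1A cells and -0.05 between the pools with IL4. Ciita did not pass the filter and has no main test. Fitted with no filter, the first and the last had adjusted p of 0.0017 and 0.00016, on values that span 0.07 over all 16 libraries. In that fit the difference of the IL4 responses, -0.04, did not pass (adjusted p = 0.062).

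H2-Aa, the alpha chain of I-A, ran from -0.35 to -0.32, and all 4 IL4-treated shKDM1A libraries were within 0.005 of its lowest value. In IL4-treated shGFP cells 0 of 4 were, and without IL4 3 of 4 were in each pool. H2-Eb1, the beta chain of I-E, ran from 0.04 to 0.06, and H2-DMb1 from 0.62 to 0.66. None of the group means of these 3 genes differed by more than 0.02 in any of the 4 pairwise comparisons. The moderated values give no count, so whether any of these shifts stands for more than a few reads was not detectable here.

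Of the 4 other class II chains listed, H2-Oa alone passed the filter, and it was called in none of the 5 comparisons. H2-Oa and H2-Ob form H2-O, which holds H2-DM in check. H2-Ob lay between 0.38 and 0.41 in all libraries, and H2-Eb2 was listed at 0.

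The class II region of chromosome 17 holds 5 other genes between H2-DMa and H2-Eb1 in the table. These are H2-Ob, the proteasome subunits Psmb9 and Psmb8 and the peptide transporter subunits Tap1 and Tap2, the last 4 of which feed the class I pathway. All 4 of these tested genes were called higher in shKDM1A cells both without and with IL4, beside 19.7% and 20.9% of all genes tested. None was called for IL4 in either pool or for the difference of the IL4 responses. With IL4 13.1% of all genes tested were called higher and 13.7% lower in shGFP cells, and 13.6% and 13.5% in shKDM1A cells. The responses differed for 6.13% of all, and a count of 0 of 4 is not read as a result about these genes. At an unadjusted p under 0.05, Psmb8 passed for IL4 in shGFP cells (-0.08) and for the difference of the responses (0.12), and no other of the 4 did in these 3 comparisons. Without IL4 the differences were 0.52 for Tap1 (adjusted p = 1e-09), 0.47 for Psmb8 (6.7e-09), 0.39 for Psmb9 (8.7e-08) and 0.33 for Tap2 (8.9e-05). With IL4 they were 0.59, 0.59, 0.41 and 0.29 in the same order. The shGFP libraries of Tap1 lay between 9.35 and 9.47 and the shKDM1A libraries between 9.88 and 10.05. In the same comparisons H2-DMa moved the same way by 0.26 and 0.41, while H2-DMb2 and H2-Ab1 differed by 0.05 or less.

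**Figure D3:**
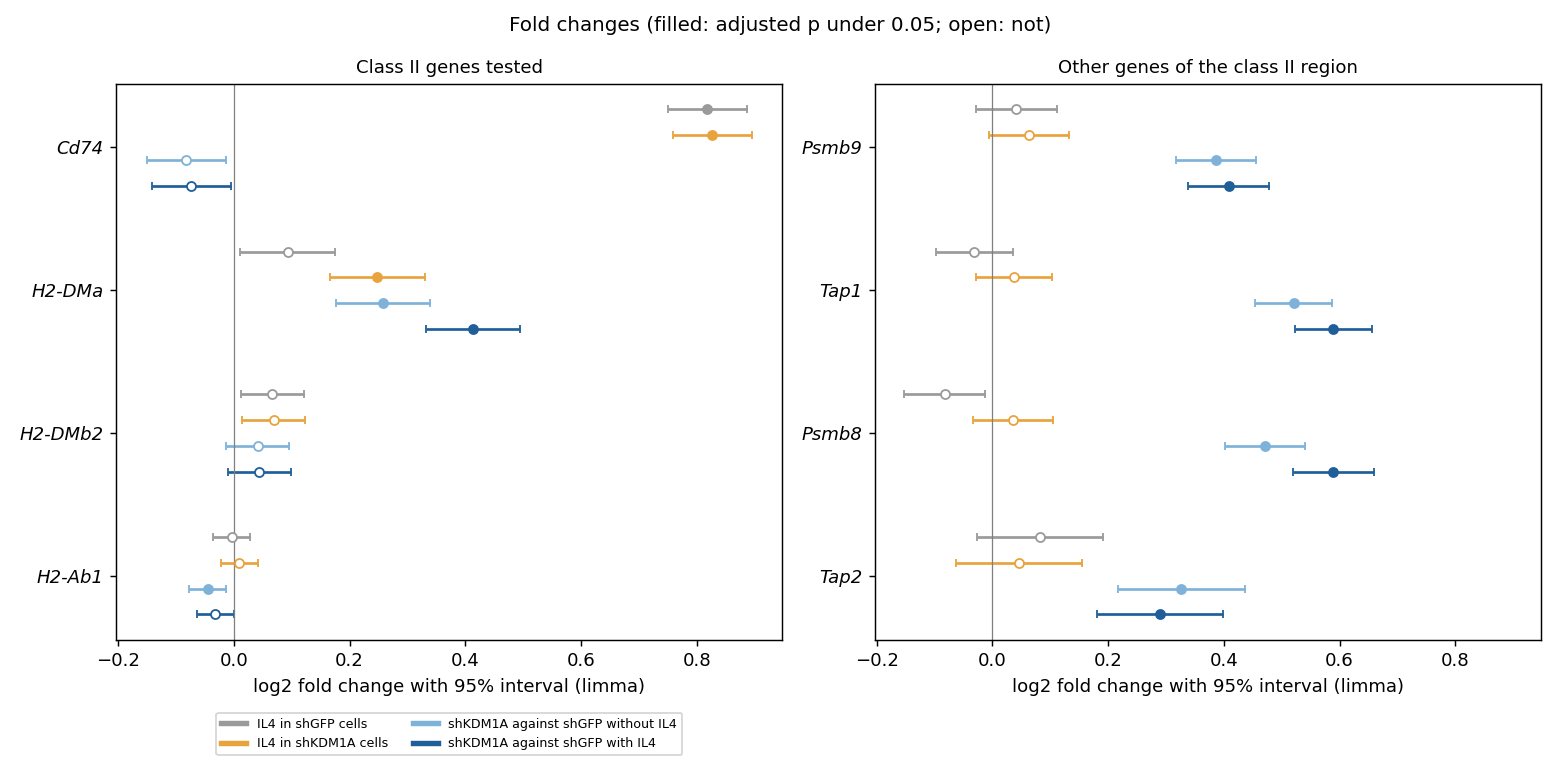
Log2 fold changes with 95% intervals for the 4 class II genes tested and for 4 genes of the same region, by comparison (line colour); filled points passed an adjusted p of 0.05. Cd74 moves with IL4 at 0.82 and 0.83, H2-DMa moves with the pool and, in shKDM1A cells, with IL4, and Tap1, Tap2, Psmb8 and Psmb9 move with the pool.

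The proteases and helpers that cut Cd74 and antigen in the endosome were higher in the depleted pool, and several of them fell with IL4. Without IL4 all 7 were called higher in shKDM1A than in shGFP cells, with a median of 0.27 against -0.0027 over all genes tested, of which 19.7% were called higher. Ctsl, a cathepsin that cuts the invariant chain, differed by 0.83 (adjusted p = 1.6e-13). Ctss, the cathepsin that makes the last cut of the invariant chain in most presenting cells, differed by 0.53 (adjusted p = 1.7e-12), from 13.51 to 13.57 in shGFP libraries up to 14.08 to 14.09 in shKDM1A libraries. Ctsd and Ctsb differed by 0.49 and 0.27. Smaller differences were those of Sppl2a at 0.16, the membrane protease that clears the Cd74 remnant, Ifi30 at 0.14, the lysosomal thiol reductase, and Lgmn at 0.13, asparagine endopeptidase. With IL4 6 of the 7 were called higher, Ctsl at 0.86, Ctsd at 0.57, Ctss at 0.45, Ctsb at 0.29, Ifi30 at 0.16 and Sppl2a at 0.16, and Lgmn was not, beside 20.9% of all genes tested.

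IL4 lowered several of these genes while Cd74 rose. In shGFP cells Ctsb fell by 0.40 (adjusted p = 1.9e-10), Ctsd fell by 0.32 (1.4e-08) and Ctsl fell by 0.13 (5e-04). Lgmn and Ifi30 rose by 0.09 each. In shKDM1A cells Ctsb, Ctsd, Ctsl and Ctss fell by 0.38, 0.24, 0.11 and 0.11, and Ifi30 rose by 0.12. Over all genes tested, 13.7% were called lower with IL4 in shGFP cells and 13.5% in shKDM1A cells. None of the 7 passed the test of the difference of the IL4 responses, a count near the background of 6.13%. At an unadjusted p under 0.05 there were Ctss at -0.08, Ctsd at 0.08 and Lgmn at -0.08, and the other genes of this list did not pass.

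Factors that bind the X and Y boxes showed small shifts. RFX is built from Rfx5, Rfxap and Rfxank, NF-Y from Nfya, Nfyb and Nfyc, and CREB1 joins them on the X box. All 7 genes were tested. Without IL4, 4 were called lower in shKDM1A cells, Creb1 at -0.15, Nfya at -0.11, Rfxank at -0.11 and Nfyb at -0.09, and the median of the 7 was -0.09 against -0.0027 over all genes tested, of which 18.4% were called lower. With IL4 the calls were Nfya at -0.20 (adjusted p = 3.3e-05) and Creb1 at -0.18 (adjusted p = 0.0011), beside 19.8% of all genes tested called lower. IL4 raised Nfya in shGFP cells by 0.12 (adjusted p = 0.0035) and none of the 7 was called in shKDM1A cells. The test of the difference of the responses called none of the 7, Nfya included (-0.08, adjusted p = 0.22). At an unadjusted p under 0.05 Nfyc alone passed it, at 0.14. Over all genes tested, 13.6% were called higher and 13.5% lower for IL4 in shKDM1A cells, and 6.13% were called for the difference. A count of 0 of 7 is not read as a result about these genes. The ubiquitin ligase gene March8, whose product removes class II from the surface, fell by 0.14 and 0.18 with IL4 in shGFP and shKDM1A cells. It was higher in shKDM1A cells by 0.12 without IL4 and 0.08 with it, while March1 was called in no comparison.

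**Figure D4:**
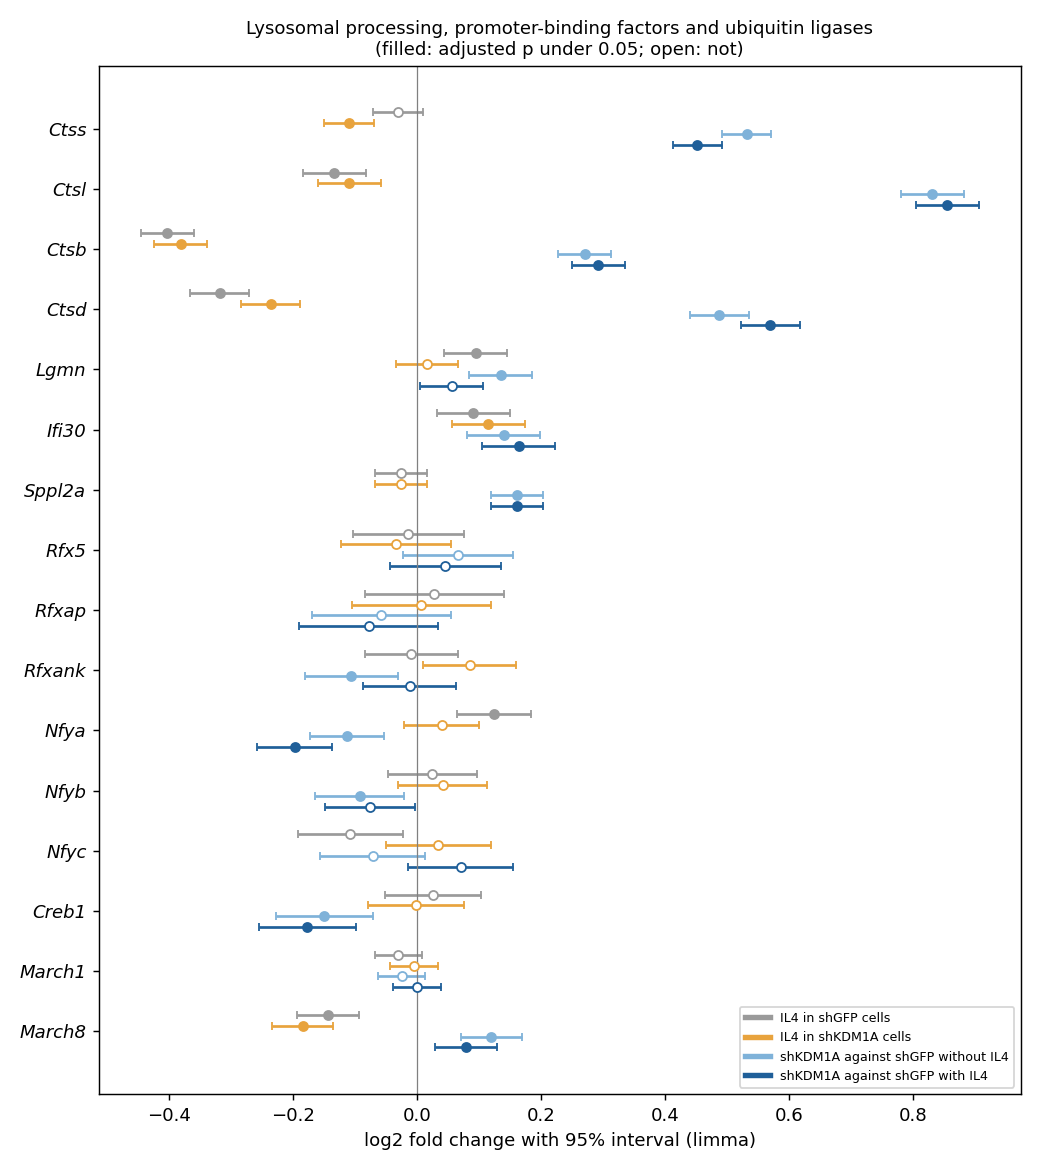
Log2 fold changes with 95% intervals of lysosomal processing genes, promoter-binding factors and ubiquitin ligases in 4 comparisons (line colour); filled points passed an adjusted p of 0.05. The 7 processing genes from Ctss to Sppl2a lie right of 0 for shKDM1A against shGFP without IL4, with Ctsl at 0.83, and Ctsb and Ctsd lie left of 0 for IL4.

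Signalling genes and transcription factors that act upstream of Ciita were compared next. Of 13 listed, 12 were tested, and Prdm1 was not. Without IL4, 7 were called higher in shKDM1A cells and 1 lower, against 19.7% and 18.4% of all genes tested, with a median of 0.13 over the 12 and of -0.0027 over all. With IL4 5 were called higher and 3 lower, against 20.9% and 19.8% of all, with a median of 0.03 and of -0.0024 over all. Irf1, a transcription factor induced by interferon, differed by 0.32 without IL4 (adjusted p = 1.9e-06) and 0.26 with IL4 (1.8e-05). Its shGFP libraries lay between 8.50 and 8.68 and its shKDM1A libraries between 8.81 and 9.01. In the same order the differences were 0.27 and 0.33 for Irf8 and 0.11 and 0.25 for Spi1, which encodes PU.1. Ifngr2, a chain of the interferon gamma receptor, differed by 0.15 and 0.28, while Ifngr1, its partner, differed by -0.17 and -0.14. Jak2 was higher by 0.16 without IL4. Il4ra, the IL4 receptor chain, differed by -0.15 with IL4.

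IL4 moved part of this list, with 4 of the 12 called higher and 1 lower in shGFP cells, beside 13.1% and 13.7% of all genes tested. In shKDM1A cells 3 were called higher and 2 lower, beside 13.6% and 13.5%. In shGFP cells Socs1, a feedback inhibitor of JAK kinases, rose by 0.70, Jak2 by 0.55, Ifngr2 by 0.14 and Stat6 by 0.08, and Irf8 fell by 0.36. In shKDM1A cells Jak2 rose by 0.41, Socs1 by 0.37 and Ifngr2 by 0.27, while Irf8 and Irf1 fell by 0.31 and 0.13. The IL4 response differed between the pools for 2 of the 12, beside 6.13% of all genes tested. For Socs1 the response of shKDM1A cells was the smaller one, with a difference of -0.33 (adjusted p = 0.015). For Ifngr2 it was the larger one, with a difference of 0.13 (adjusted p = 0.017). Socs1 was 0.17 higher in shKDM1A cells without IL4 (adjusted p = 0.019) and differed by -0.17 with it (adjusted p = 0.018).

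Cell type markers that moved with these comparisons are given as values. The summed level of the 8 macrophage markers on the log2 scale was 17.57 to 17.62 in shGFP cells and 17.23 to 17.25 with IL4, and in shKDM1A cells it was 17.77 to 17.80 and 17.67 to 17.77. It was higher in shKDM1A cells, as H2-DMa was, and lower with IL4. Lyz2, at a mean of 16.90 in shGFP cells without IL4, carried most of this sum. With IL4 Lyz2 fell by 0.53 in shGFP and 0.12 in shKDM1A cells, while Csf1r rose by 0.26 and 0.28. Of the 7 tested, 2 were called higher and 3 lower with IL4 in shGFP cells, beside 13.1% and 13.7% of all genes tested. In shKDM1A cells 3 were called higher and 3 lower, beside 13.6% and 13.5%. All 7 macrophage markers tested were called between the pools, without IL4 4 higher and 3 lower, beside 19.7% and 18.4% of all genes tested. With IL4 5 were called higher and 2 lower, beside 20.9% and 19.8%. The largest differences in each direction without IL4 were those of Itgam at 0.41 and Fcgr1 at -0.45. Adgre1 rose with IL4 by 1.24 in shGFP cells and 0.90 in shKDM1A cells. The summed level of the 8 dendritic cell markers on the log2 scale was 6.95 to 7.08 in shGFP cells and 7.40 to 7.52 with IL4. In shKDM1A cells it was 6.68 to 6.73 and 6.90 to 6.98. It rose with IL4, as Cd74 did, and was lower in shKDM1A cells, where H2-DMa was higher. Itgax carried most of this sum, and Flt3 lay near -1.91 in all groups. The summed B cell list, led by Blnk, was 9.56 to 9.65, 9.73 to 9.85, 8.90 to 9.03 and 9.27 to 9.34 in the 4 groups, in the order used above, with 6 of its 7 measured markers at or under 0. The T cell list, led by Lck, stayed between 5.79 and 5.98, with 5 of 6 at or under 0. The part of these markers in the results was not tested. In bulk RNA fewer cells of a type and less RNA per cell cannot be told apart.

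The genes whose profiles over the 16 libraries were most like that of Cd74 were found by the root mean square difference of values centred on each gene's mean. Among the nearest 5 were Pdgfa at 0.0526, Rai14 at 0.0896, Ptgs2 at 0.0928 and Casp6 at 0.0971. These 4 differed with IL4 by 0.69 for Casp6 to 0.85 for Pdgfa in shGFP cells and by 0.67 for Rai14 to 0.90 for Ptgs2 in shKDM1A cells. Pdgfa encodes a chain of platelet-derived growth factor, Ptgs2 a cyclooxygenase and Casp6 a caspase. These genes were picked by their likeness to Cd74, so their similar IL4 changes are no separate finding. No other class II gene was among the nearest 5, and none of the others tested changed with IL4 by more than 0.25.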

How the data were processed

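RNA-seq of RAW264.7 cells (16 libraries) was analysed. The paper's methods name HISAT2 and Bowtie2 for alignment to mm9, and HOMER. Per the file headers the authors used HOMER to count exonic reads of both strands for its mm9 gene models, condensed by gene, and DESeq2 to compare groups. The deposited values per library are log2-scale scores, moderated for low counts, with decimals written as commas. The transformation and the strandedness of the kit are not given in the sources used here, and reads of a gene and an antisense partner are not separated. The BMDM table holds only the authors' own fold changes and p-values, and none of them was used. The authors' comparison columns of the RAW table were likewise not used. Totals ran from 17554721 to 27782568 tags per library. The values carry no counts, so no counting interval is given.

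Genes that reached 1 in 4 or more libraries (12905 of 25094, while 8488 were listed at 0 in all) were fitted with limma 3.58.1 in R 4.3.3, with 1 mean for each of 4 groups, all 16 libraries and 5 contrasts. P-values were adjusted by the Benjamini-Hochberg method over all genes tested, with calls at an adjusted p under 0.05. A fold change is a difference of moderated values and understates changes of weak genes. The fit was tested on simulated data. Median absolute differences between libraries of 1 group ran from 0.0358 to 0.0561, and no pair was identical. The genes and lists were chosen with earlier results of these data known. Named were the members, Kdm1a, called genes of the pathway lists, the other genes of the class II region (with values for those called in the difference of the IL4 responses or, with none, for the 4 of smallest p between the pools with IL4), and the 5 genes nearest to the highest member. Some genes that this rule names are not reported here. Alternatives were no filter, a minimum of 5, only the groups compared, a trended prior variance, quantile normalization, median centring, a replicate block and leaving out each library.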

Additional observations from a re-analysis of the deposited data

Results flagged for a closer look

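Among 56 group values tested for a library far from the other 3, 3 were marked, near the 1 in 20 that chance gives, and all were in weakly expressed genes that did not pass the filter. H2-Aa read -0.318 in the shGFP control replicate 2, against -0.351 to -0.350 in the other 3 libraries, and -0.341 in the shKDM1A control replicate 1, against -0.351 to -0.350. H2-Eb1 read 0.0527 in the IL4-treated shKDM1A replicate 3, against 0.0381 to 0.0383.

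The IL4 response differed between the pools, by limma's test of the difference, for 2 genes of the pathway lists. For Socs1 the difference, shKDM1A minus shGFP, was -0.33 (adjusted p = 0.015), with no overlap of libraries without and with IL4 in either pool. For Ifngr2 it was 0.13 (adjusted p = 0.017), with IL4-treated libraries above untreated ones in both pools.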

How the results depend on the processing

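Of 446 refits of the fold changes of Cd74, H2-DMa, H2-DMb2 and H2-Ab1, 418 kept the direction and the side of the threshold, or moved by less than the spread of the libraries around a value near 0. In 5 a call was lost, all for H2-Ab1 without IL4, and in 23 a call was gained. Many refits could not move a pairwise fold change, which is a difference of group means. The other filters, the groups compared alone, the block, the trended variance and leaving out a library of another group returned the same value. There a call could change only through the estimated spread or the adjustment over genes. The calls of Cd74 for IL4 (0.79 to 0.85 over all refits) and of H2-DMa for IL4 in shKDM1A cells and for both comparisons of the pools held in every refit. No scaling moved the median of all genes by more than 0.0102. The number of members called for IL4 in shGFP cells was 2 with no filter, where Ciita was added, and 2 with a trended prior variance, where H2-DMb2 was added. For the pools with IL4 it was 3 with no filter, 2 with quantile normalization (Cd74 at -0.14, adjusted p = 0.0018) and 3 with a trended prior variance. For the pools without IL4 it was 1 with a minimum of 5, which removes H2-Ab1. Cd74 between the pools without IL4 passed the threshold under 4 alternatives, with values from -0.11 to -0.08. Leaving out 1 library gave counts from 1 to 2 for IL4 in shGFP cells, 2 to 3 for IL4 in shKDM1A cells, 1 to 3 for the pools without IL4, 1 to 2 with IL4 and 0 to 1 for the difference of the responses. The count for the pools with IL4 rose to 2 without the shKDM1A IL4 replicate 3, where Cd74 was -0.10 (adjusted p = 0.015). Without IL4, Cd74 passed between the pools without the shKDM1A control replicate 1 (-0.10) or without the shKDM1A IL4 replicate 2, 3 or 4 (-0.08). H2-DMb2 passed for IL4 in shKDM1A cells, at 0.07 to 0.09, without the shGFP control replicate 2, the shKDM1A control replicate 3 or the shKDM1A IL4 replicate 1 or 4, and under both rescalings and the trended variance.

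The replicate numbers did not pair the libraries: 3 of 24 same-numbered pairs of groups had correlated deviations above 0.1 (from -0.34 to 0.27), and 6 of 16 libraries correlated best with their own number. With the replicate block the counts were 1, 2, 3, 1 and 0 in the order above, and Cd74 between the pools without IL4 was added (adjusted p = 0.036). The other causes of these shifts were not tested. Weak genes limit what can be read, since the values of Ciita, H2-Aa, H2-Eb1 and H2-DMb1 are drawn together and, as for all genes here, come without counts.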
